A study of Mus musculus with 4 samples.

Results

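Complement genes were examined as 9 genes chosen by symbol: C1qa, C1qb, C1qc, C2, C3, C4b, Cfb, Cfd and Cfi. All 9 were measured among the 24444 genes of the table, and all 9 were among the 15246 genes with enough counts to be tested. RNA was sequenced from 3 CT26-shppp2r1a tumours, called the knockdown libraries here, and from 1 CT26-scr tumour, called the control. CT26 is a colon carcinoma line of BALB/c mice. In the knockdown tumours the cells carried a short hairpin RNA (shRNA) against Ppp2r1a, a scaffold subunit of phosphatase PP2A, and in the control tumour they carried a scrambled hairpin. Per the labels all tumours were taken from mice at about 70 mm3, and the study used these libraries to predict neoantigens. The labels and the study's methods do not state the age of these mice, which hairpin each tumour carried or whether each knockdown tumour grew in its own mouse. The p-values below therefore measure only the spread between these libraries. The control had no replicate, so its own variation is unknown and what is particular to that tumour cannot be told apart from the knockdown. In the study's methods CT26 tumours were grown under the skin of BALB/c mice after transfection and antibiotic selection. A bulk tumour library holds RNA of host cells as well as of the injected line, so fewer cells of a type and less RNA per cell cannot be told apart.

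Complement is a cascade of plasma proteins that tags cells and debris for removal. The classical pathway starts when C1q, made of the chains encoded by C1qa, C1qb and C1qc, binds antibody or dying cells, and its attached proteases then cut C4 and C2. The alternative pathway is driven by factor B (Cfb) and factor D (Cfd), all routes converge on cleavage of C3, and factor I (Cfi) cuts the active fragments of C3 and C4 down again. Most circulating complement comes from the liver, but macrophages are the main source of C1q, adipocytes secrete factor D, and fibroblasts and epithelial cells can make C3, C4 and factor B.

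Total expected counts, the estimated number of reads assigned to genes, lay between 24726440 and 27910370 in the knockdown libraries and came to 28950004 in the control. Ppp2r1a stood at 40.2, 29.8 and 22.3 TPM (a length-corrected share in each library) in knockdown replicates 1, 2 and 3, against 75.1 TPM in the control, which is the direction of the labels. Intestinal transcripts stood high in every library. A list of 10 small bowel enterocyte markers summed to 19340, 48040 and 80110 TPM across the knockdown libraries versus 84960 TPM in the control. Within that list Fabp6 set the control apart from all 3 knockdown libraries, at 2.44, 5.13 and 0.57 TPM against 3435 TPM. A list of 8 large bowel markers summed to 2317, 993 and 187 TPM against 273 TPM, with Car1 and Slc6a14 at 0 in the control. General epithelial markers, a list of 6 with Krt8 and Epcam, summed to 11720, 12620 and 10360 TPM, against 10070 TPM. How much of the RNA came from CT26 cells was not determined. The sample descriptions give the control and knockdown replicate 3 the same number, 3, whose meaning is not stated. Over all genes that pair differed least, with a chi-square per degree of freedom of 91.05, against 277 for replicate 2 and 633 for replicate 1 with the control, so where replicate 3 lies near the control below, the libraries were also nearest as a whole. To compare libraries of unlike composition, library sizes were multiplied by factors from the trimmed mean of M values (TMM). The factors were 1.295, 1.056 and 0.867 for knockdown replicates 1, 2 and 3 and 0.844 for the control. Counts were divided by these sizes, so a higher factor lowers the scaled values. TPM values lack that scaling, so every ratio below is labelled as a ratio of TPM or of counts scaled to library size (CPM) and TMM, called scaled CPM.

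None of the complement genes passed the test. The fitted level of all 9 was higher in the knockdown libraries than in the control, as was that of 8150 of the 15246 genes tested. Scaled CPM of C1qb, C2, C3, C4b and Cfd exceeded the control in all 3 knockdown libraries, so the groups did not overlap for 5 of 9 genes, where 31.8% of all tested genes had that pattern. None of the 9 lay below the control in all 3 knockdown libraries, against 27.7% of all tested genes. On TPM 7 of the 9 lay above the control in all 3, beside 43.6% of all tested genes. The median log2 fold change of the 9 genes was 1.15, against 0.06 over all tested genes, and without knockdown replicate 1 it was 0.73. In knockdown replicates 1, 2 and 3 taken singly, the median log2 ratio of scaled CPM to the control was 1.53, 0.91 and 0.48. By edgeR's quasi-likelihood test with Benjamini-Hochberg adjustment 0 of the 9 had an adjusted p under 0.05, beside 0% of all tested genes. At an unadjusted p under 0.05 that test had 2 of the 9, C3 and C4b, and 556 of the 15246. DESeq2 called 1 of the 9, C4b, beside 0.866% of all tested genes called higher.

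**Figure D1:**
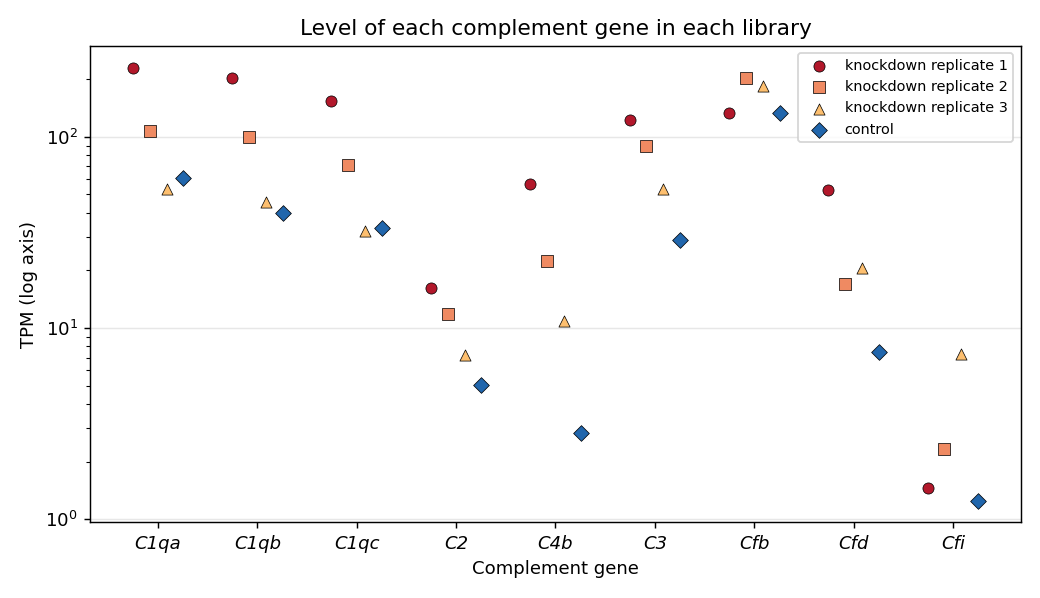
TPM of each complement gene in each library, on a log axis, with 1 point per library and no error bars. C4b, Cfd, C3 and C2 have every knockdown library above the control, while C1qa and C1qc of knockdown replicate 3 lie just below it and Cfb of replicate 1 lies level with it (133.88 against 133.18 TPM).

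The 3 chains of C1q were abundant, lay well above the control in knockdown replicates 1 and 2, and lay near it in replicate 3. In the GRCm38 annotation of GENCODE M21 their genes lie side by side on the minus strand of chromosome 4, C1qb from 136880129 to 136886187, C1qc from 136889804 to 136893065 and C1qa from 136895917 to 136898803. The gaps are 3616 and 2851 bases, within a span of 18675 bases. Promoters of 4 of the 9 genes, C1qb, C1qc, C3 and Cfd, were matched in RefSeq (build GRCm38.p6), and C1qa, C2, C4b, Cfb and Cfi were not. The 250 bases before the start of C1qb (chr4:136886201-136886450) and of C1qc (chr4:136892915-136893164) are shown because these genes are adjacent and had like profiles. Many other genes also had profiles near theirs, as given below. Starts are those of RefSeq and differ from the GENCODE ones, so that 151 of the 250 bases for C1qc lie inside the gene as GENCODE has it. Both are given in the direction of the gene. Capitals mark GAGGAA, the core motif of PU.1, a transcription factor of macrophages, or its reverse complement.
C1qb promoter: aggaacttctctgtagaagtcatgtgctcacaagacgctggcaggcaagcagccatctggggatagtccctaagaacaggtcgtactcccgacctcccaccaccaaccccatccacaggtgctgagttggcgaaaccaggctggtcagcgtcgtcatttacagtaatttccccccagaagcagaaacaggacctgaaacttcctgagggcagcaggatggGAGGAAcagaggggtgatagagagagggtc
C1qc promoter: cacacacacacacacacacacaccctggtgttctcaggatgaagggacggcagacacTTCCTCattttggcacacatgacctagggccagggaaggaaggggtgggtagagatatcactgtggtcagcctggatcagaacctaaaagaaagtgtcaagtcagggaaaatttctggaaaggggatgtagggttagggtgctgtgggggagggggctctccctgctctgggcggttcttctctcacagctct
The motif began 30 bases before the start of C1qb and 193 bases before that of C1qc, there on the opposite strand. Of 32851 promoters of the same length 23.3% hold it on either strand, so a match is common and is a description of the letters only.

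C1qa was at 230.25, 107.63 and 53.3 TPM across knockdown replicates 1, 2 and 3 versus 60.6 TPM in the control. C1qb was at 202, 99.3 and 45.9 TPM across the knockdown libraries versus 39.8 TPM in the control. C1qc was at 154, 71.1 and 32.3 TPM, against 33.4 TPM. Thus replicates 1 and 2 lay well above the control for each chain, and replicate 3 lay close to it, a little below for C1qa and C1qc and a little above for C1qb. In scaled CPM C1qa of replicate 3 was 0.852 of the control, with a 95% exact binomial interval from 0.778 to 0.933. The interval for C1qc, from 0.829 to 1.056 around a ratio of 0.936, included equality, and that for C1qb ran from 1.004 to 1.24. These intervals cover counting error only and say nothing of variation between tumours. The fitted log2 fold changes were 0.71 (standard error 0.69) for C1qa, 1.15 (0.72) for C1qb and 0.96 (0.75) for C1qc, with adjusted p of 0.783, 0.782 and 0.782 by edgeR. Without knockdown replicate 1 they were 0.20, 0.66 and 0.42.

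Within each library the chains kept a steadier proportion than their levels. C1qb stood at 0.878, 0.923 and 0.860 of the TPM of C1qa in knockdown replicates 1, 2 and 3, a mean of 0.887 ± 0.032 (SD, n = 3), against 0.657 in the control. C1qc stood at 0.669, 0.660 and 0.605 of C1qa, a mean of 0.645 ± 0.035 (SD, n = 3), against 0.551 in the control. Both ratios were higher in each knockdown library than in the single control, and no test was made of them. The mean C1qb to C1qa ratio was 1.351 times that of the control.

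Macrophage markers summed highest in the libraries in which C1q was highest. Of 12 markers, 5 were above the control in all 3 knockdown libraries in scaled CPM, 3 were below it in all 3, and none was at 0 in the control. Among all tested genes 31.8% were above it in all 3 and 27.7% below it in all 3. Their summed level was 1086, 801 and 239.9 TPM across the knockdown libraries versus 245.8 TPM in the control. Most of each sum was Lyz2, at 822, 633 and 132 TPM across the knockdown libraries versus 137 TPM in the control. Cd14 was next in mean level, at 160, 78.5 and 10.2 TPM against 4.91 TPM. The order of the sums thus rests mainly on Lyz2. Csf1r, the receptor for the macrophage growth factor, was at 22.1, 12.4 and 9.51 TPM against 8.01 TPM, and Adgre1, which encodes F4/80, at 8.38, 4.97 and 2.45 TPM against 2.61 TPM. In TPM the ratio of C1qa to Adgre1, picked after the values were seen, was 27.5, 21.7 and 21.8 in the knockdown libraries against 23.2 in the control. That of C1qa to Csf1r, picked in the same way, was 10.4, 8.69 and 5.61 against 7.57. Both ratios had knockdown libraries on either side of the control. The part of macrophage content in the C1q values was not tested.

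C4b, which encodes complement C4, the substrate of the C1 protease, showed the widest difference among the 9 genes. It was at 56.7, 22.3 and 10.8 TPM across knockdown replicates 1, 2 and 3, a mean of 29.9 ± 23.9 TPM (SD, n = 3), versus 2.81 TPM in the control. The knockdown libraries held 4667, 2011 and 957 counts and the control 259, so every library rested on more than a few reads. All 3 knockdown libraries lay far above the control, and they differed among themselves too. In scaled CPM the ratios to the control were 13.7, 6.53 and 3.73, with 95% counting intervals from 12.1 to 15.6, from 5.73 to 7.46 and from 3.25 to 4.29. The fitted log2 fold change of C4b was 3.00 (standard error 0.94), and its adjusted p by edgeR was 0.782. The adjusted p ranged from 0.0057 to 0.808 over 10 alternatives. It passed in DESeq2, with an adjusted p of 0.0256 and a log2 fold change of 2.96. It also passed by edgeR without knockdown replicate 3, with an adjusted p of 0.0057 and a log2 fold change of 3.34, where 5.08% of all tested genes were called higher.

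**Figure D2:**
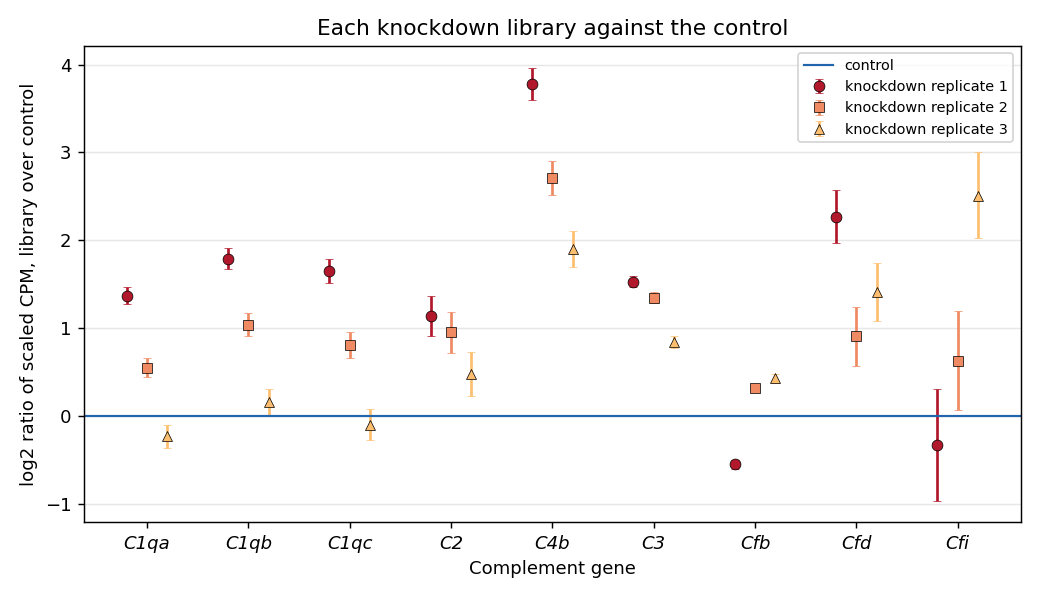
Log2 ratio of scaled CPM, each knockdown library over the control, with 95% counting intervals as bars and the control as the line at 0. C4b has the highest ratios in replicates 1 and 2, and Cfb and Cfi are the genes whose replicate 1 lies below the control.

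C4b has a near-identical neighbour, C4a, which in mice encodes the sex-limited protein, so reads can be split between them. In the GRCm38 annotation C4b lies on chromosome 17 from 34728380 to 34743882 and C4a from 34809092 to 34823464. Over 5206 aligned bases of the C4b coding sequence (GENCODE M21) 96.2% were identical in a C4a transcript, and 35.5% of its 50-base windows were found there unchanged. The read length of these libraries was not stated. The 60 bases with the most differences are shown because reads from there can tell the copies apart, with the differing bases in capitals.
C4b: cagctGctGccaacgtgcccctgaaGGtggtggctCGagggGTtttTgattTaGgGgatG
C4a: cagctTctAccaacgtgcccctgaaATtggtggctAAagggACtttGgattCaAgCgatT
They run from base 2705 to 2764 of the C4b coding sequence and hold 13 differences. C4a was at 0.17, 0.22 and 0.07 TPM across the knockdown libraries versus 0.08 TPM in the control, far below C4b in each. Expected counts of C4b were not whole in 4 of 4 libraries, and no other gene of the 9 had any that were not whole. The ratio of C4a to C4b in TPM was 0.003, 0.00988 and 0.00648 in the knockdown libraries against 0.0285 in the control. The split of reads between the copies is uncertain.

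C2, the protease that joins C4b to form the classical C3 convertase, was at 16.3, 11.8 and 7.22 TPM across the knockdown libraries versus 5.02 TPM in the control. All 3 knockdown libraries were above the control, with scaled CPM ratios of 2.20, 1.93 and 1.39. The 95% counting interval of the lowest ran from 1.17 to 1.66. The log2 fold change of C2 was 0.88 (standard error 0.39), and its adjusted p by edgeR was 0.782. In the annotation C2 lies on chromosome 17 from 34862604 to 34898265, and Cfb from 34856374 to 34862518, 85 bases away. A readthrough transcript on the same strand, Gm20547, overlaps both but was not among the genes measured. Expected counts of C2 and Cfb were whole in all 4 libraries. Whether their counts include reads of that transcript was not determined.

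These neighbouring genes had unlike profiles. The ratio of C2 to Cfb in TPM was 0.121, 0.0583 and 0.0391 in knockdown replicates 1, 2 and 3 against 0.0377 in the control. Cfb, which encodes the protease of the alternative C3 convertase, was among the most abundant of the 9 genes, at 133.88, 202 and 185 TPM across the knockdown libraries versus 133.18 TPM in the control. In scaled CPM replicate 1 was below the control at a ratio of 0.685 (95% counting interval 0.66 to 0.71), and replicates 2 and 3 were above it at 1.25 and 1.35. The knockdown libraries thus lay on both sides of the control on that scale. The log2 fold change of Cfb was 0.13 (standard error 0.53), and its adjusted p by edgeR was 0.931. Without knockdown replicate 3 the log2 fold change was -0.05.

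C3, the protein on which all pathways converge, was higher in each knockdown library. It was at 123, 89.2 and 53.3 TPM across knockdown replicates 1, 2 and 3, a mean of 88.4 ± 34.6 TPM (SD, n = 3), versus 28.9 TPM in the control. Scaled CPM ratios were 2.89, 2.55 and 1.79, and the 95% counting interval of replicate 3 ran from 1.71 to 1.88. The knockdown libraries did not overlap the control, on 4495 or more counts each. The fitted log2 fold change of C3 came to 1.27 (standard error 0.46). Its p by edgeR was 0.0459 unadjusted and 0.782 adjusted, above the threshold. The adjusted p was between 0.156 and 1 over 10 alternatives, and the log2 fold change between 1.11 and 1.66.

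In the GRCm38 annotation C3 lies on chromosome 17 from 57203970 to 57228136, on the minus strand, far from C2 and C4b. Its 250-base promoter (RefSeq, GRCm38.p6, chr17:57228137-57228386, in the direction of the gene) is shown because it held more than 1 match to TTNNGNAA, a form of the motif of C/EBP, a family of transcription factors of the acute phase response. Capitals mark the matches.
C3 promoter: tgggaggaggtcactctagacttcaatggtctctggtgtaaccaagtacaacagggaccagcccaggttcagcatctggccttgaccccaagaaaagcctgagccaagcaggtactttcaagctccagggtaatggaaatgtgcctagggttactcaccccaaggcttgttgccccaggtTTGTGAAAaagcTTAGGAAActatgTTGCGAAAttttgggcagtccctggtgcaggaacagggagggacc
The matches began 70, 58 and 45 bases before the start, and none overlapped a match to the other motifs searched. Of all promoters of that length 36.8% hold the motif on either strand, the promoter of C1qc among them. GGG and CC set 5 bases of any kind apart, a form of the motif of NF-kB, was in the promoters of C1qb, C1qc, C3 and Cfd and in 45.8% of all promoters. TTCNNNGAA, the motif of STAT factors, was in none of the 4 and in 7.02% of all promoters.

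Inflammatory genes were higher in the same libraries in which C3 and C4b were highest. Of 11 acute phase and cytokine genes, 10 were above the control in all 3 knockdown libraries in scaled CPM, with sums of 2490, 1538 and 27.4 TPM across the knockdown libraries versus 8.29 TPM in the control, where Saa2 and Il6 were at 0. Among all tested genes 31.8% were above the control in all 3 and 27.7% below it in all 3. Of 14 interferon-gamma response genes, 6 were above the control in all 3, with sums of 2033, 1126 and 719 TPM against 688 TPM. In scaled CPM 1 was below it in all 3, namely Psmb8, the most abundant of them. Psmb8 was at 378, 221 and 237.5 TPM against 271 TPM. Of 8 fibroblast markers, 2 were above the control in all 3 and 1 below it, with sums of 603, 349.6 and 206 TPM against 182 TPM and none at 0. Dcn, the matrix proteoglycan decorin, was at 304, 168 and 81.4 TPM against 44.9 TPM, and Fbln1, which encodes the matrix protein fibulin, at 43.5, 71.7 and 83.5 TPM against 93.4 TPM. These most abundant fibroblast markers thus differed from the control in opposite directions. Of 10 neutrophil markers, 8 could be tested and all 8 were above the control in all 3, with sums of 737, 729.8 and 17.98 TPM against 3.3 TPM. S100a8, S100a9, Mmp8, Ngp and Camp were at 0 in the control. A gene at 0 there could be tested only through its knockdown counts and could not lie below the control. For S100a8, S100a9, Mmp8, Saa2 and Il6 the direction was therefore fixed in advance, and the counts of genes above the control include them. The tested neutrophil markers with counts in the control were also above it in all 3. The part of these cells or responses in the values of C3 and C4b was not tested.

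Cfd, which encodes factor D or adipsin, the protease that cuts factor B, had another profile. It was at 52.8, 17.03 and 20.6 TPM across knockdown replicates 1, 2 and 3, a mean of 30.2 ± 19.7 TPM (SD, n = 3), versus 7.5 TPM in the control. Replicate 1 stood highest and replicates 2 and 3 were closer together, all of them above the control. The scaled CPM ratios were 4.80, 1.87 and 2.66, with 95% counting intervals from 3.92 to 5.93, from 1.49 to 2.37 and from 2.13 to 3.35. The log2 fold change of Cfd was 1.64 (standard error 0.67), and its adjusted p by edgeR was 0.782. In the annotation it lies on chromosome 10 from 79890853 to 79892655.

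Adipocyte markers were split. Of 9 markers, 4 (Adipoq, Retn, Fabp4 and Lpl) were above the control in all 3 knockdown libraries in scaled CPM and none was below it in all 3. Among all tested genes 31.8% and 27.7% had these patterns. The list summed to 326, 248 and 369 TPM across the knockdown libraries versus 261 TPM in the control, with no marker at 0. Adipoq, which encodes the fat cell hormone adiponectin, was at 16.6, 6.62 and 10.6 TPM against 2.27 TPM, and Retn, which encodes resistin, at 11.9, 2.73 and 6.33 TPM against 1.52 TPM. Adipoq and Retn, and Fabp4 at 137, 69.8 and 98.4 TPM against 35.5 TPM, had the order of Cfd in TPM among the knockdown libraries. That order was highest in replicate 1 and lowest in replicate 2. In scaled CPM Fabp4 was instead highest in replicate 3, at 36.8, 22.7 and 37.4. Plin1, Lep and Plin4 shared the TPM order at low levels, while Cidec, Lpl and Pparg did not. Cidec, a lipid droplet gene and the most abundant of the list, was at 59.5, 125 and 223 TPM against 179.5 TPM, and Lpl, which encodes lipoprotein lipase, at 34.8, 13.5 and 6.29 TPM against 2.26 TPM. The ratio of Cfd to Adipoq in TPM, picked after the values were seen, was 3.19, 2.57 and 1.94 in the knockdown libraries against 3.30 in the control. The part of fat tissue in the values of Cfd was not tested.

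Cfi, which encodes the protease factor I, ran the other way among the knockdown libraries. It was at 1.46, 2.34 and 7.28 TPM across knockdown replicates 1, 2 and 3, a mean of 3.69 ± 3.14 TPM (SD, n = 3), versus 1.25 TPM in the control. It was the lowest of the 9 genes in TPM in each library but knockdown replicate 3, where C2 was at 7.22 TPM, and it rested on 45, 79 and 241 counts against 43. Only replicate 3 stood well apart, at a scaled CPM ratio of 5.66 (95% counting interval 4.08 to 8.02). The ratio was 1.54 in replicate 2, with an interval from 1.05 to 2.29, and 0.798 in replicate 1, with an interval from 0.514 to 1.24 that included equality. For Cfi the log2 fold change was 1.41 (standard error 1.31), and its adjusted p by edgeR was 0.782. Without replicate 3 the log2 fold change was 0.23. Cfi is annotated on chromosome 3, from 129835884 to 129875332.

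Mbl2, which encodes a mannose-binding lectin that starts the lectin pathway, followed Cfi. It was at 12.2, 21.6 and 64.6 TPM across the knockdown libraries versus 12.6 TPM in the control, and the ratio of Cfi to Mbl2 in TPM, picked after the values were seen, lay between 0.108 and 0.12 in the knockdown libraries against 0.0995 in the control. Factor I and mannose-binding lectin are best known as liver products. Of 10 hepatocyte markers, 9 were below the control in all 3 knockdown libraries in scaled CPM and 1, Tat, was above it. Among all tested genes 27.7% and 31.8% had these patterns. Fgg had 0, 9 and 10 counts across the knockdown libraries versus 16 in the control, and several others of the list also rested on few counts. The list summed to 51.6, 33.5 and 16.2 TPM against 27.1 TPM, with none at 0 in the control. The order of these sums was set by Tat, a liver enzyme of tyrosine breakdown, at 47.4, 14.0 and 0.18 TPM against 0.1 TPM, and without it the sums were 4.19, 19.45 and 16 TPM against 27.0 TPM, lowest in replicate 1. Alb, which encodes albumin, was at 0.1, 6.82 and 7.57 TPM across the knockdown libraries versus 11.1 TPM in the control. The part of liver-type transcripts in the values of Cfi was not tested.

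**Figure D3:**
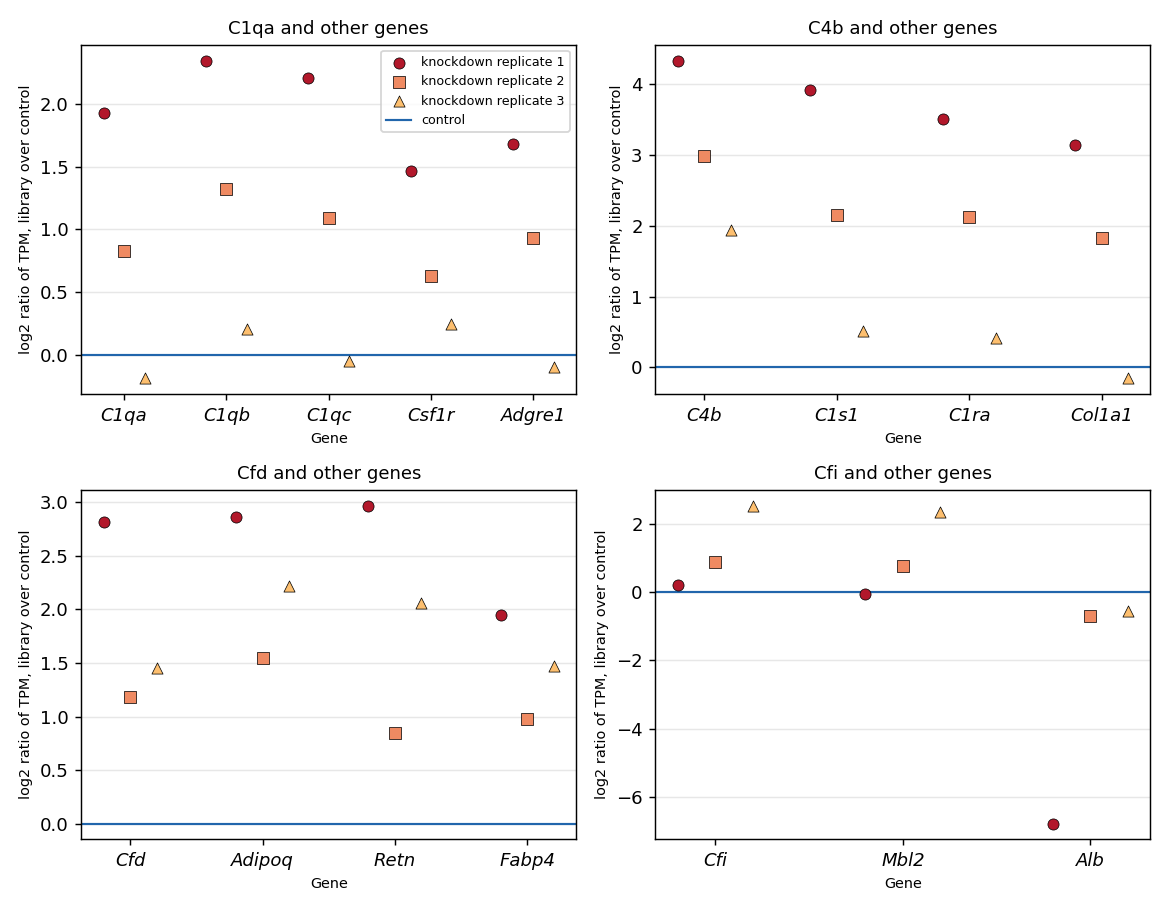
Log2 ratio of TPM, each knockdown library over the control (line at 0), for C1q, C4b, Cfd and Cfi with other genes beside them, 1 point per library. C1q genes and the macrophage genes Csf1r and Adgre1 are highest in replicate 1, Cfd, Adipoq, Retn and Fabp4 are lowest in replicate 2 of the knockdown libraries, and Cfi and Mbl2 are highest in replicate 3.

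Likeness of profile was measured as the root mean square difference between the log2 ratios to the control of 2 genes over the 3 knockdown libraries, among 10657 genes with a mean log2 CPM of at least 2. It is a description over 3 libraries that share 1 control. Cfi had Mbl2 as its nearest gene, at 0.201, and that was the single gene within 0.25. Cfd also had 1 gene within 0.25, Cemip, a hyaluronan-binding protein, at 0.229, and C4b had none, its nearest being Hebp2 at 0.26. C1qa lay in a crowded part of the profiles, with 245 genes within 0.25 and Reep5 nearest at 0.021, and C1qc and C1qb came at ranks 211 and 1133. The nearest genes of the others were Hdac7 for C1qb, Gja1 for C1qc, Phf20 for C2, Smyd5 for C3 and Sh3rf1 for Cfb, at distances between 0.019 and 0.057. C1qb and C1qc also lay among many like genes, with 296 and 263 genes within 0.25.

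Beyond the 9 genes, 47 other complement genes of a list by role were in the table and 33 could be tested. Of these 17 were above the control in all 3 knockdown libraries in scaled CPM and 6 below it in all 3, beside 31.8% and 27.7% of all tested genes, with a median log2 fold change of 1.09. None of the 33 passed by edgeR, none by limma and 1, Clu, by DESeq2. Without knockdown replicate 3 edgeR called 6 of them higher, C1ra, C1s1, C4bp, Clu and Itgb2 among them, and 1 lower, C8g, where 5.08% of all tested genes were called higher and 2.41% lower. Of the 33, 4 had an unadjusted p under 0.05 by edgeR with all libraries, namely Clu, C7, Cd59a and Itgam.

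Like C4b, the genes C1s1, C1ra, Serping1 and Clu were highest in knockdown replicate 1 and lowest in the control. C1s1 and C1ra, the mouse genes of the proteases C1s and C1r, were at 141, 41.3 and 13.2 TPM and at 54.4, 20.8 and 6.34 TPM across the knockdown libraries versus 9.30 and 4.76 TPM in the control. Serping1, the inhibitor of C1s and C1r, was at 127, 61.8 and 35.6 TPM against 23.4 TPM. Clu, which encodes clusterin, a blocker of the membrane attack complex, was at 69.7, 46.8 and 34.3 TPM against 10.1 TPM. Its fitted log2 fold change was 1.98 (standard error 0.35), and its adjusted p was 0.782 by edgeR and between 0.0106 and 0.808 over 10 alternatives. All 4 of these genes were above the control in every knockdown library. For classical proteases and C4a, 3 of 5 tested genes were above the control in all 3, beside 31.8% of all tested genes. Over the list of soluble regulators, 5 of 8 tested genes were above the control in all 3 knockdown libraries and 2 below it in all 3, beside 31.8% and 27.7% of all tested genes, and 0 of 8 passed, beside 0% of all tested genes.

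Lectin, terminal and membrane-bound genes were mixed. Fcna, a ficolin, was at 6.24, 3.77 and 2.78 TPM across the knockdown libraries versus 1.73 TPM in the control, while Colec10, a collectin, was at 1.30, 1.31 and 0.45 TPM against 1.63 TPM. C8g, part of the membrane attack complex, was at 1.15, 1.17 and 7.47 TPM against 6.33 TPM. Among regulators on the cell membrane, Cd55, which speeds the decay of C3 convertases, was at 76.4, 68.5 and 57.5 TPM against 67.2 TPM. Cd59a, which blocks the membrane attack complex, was at 6.13, 6.25 and 5.14 TPM against 9.51 TPM. Both were below the control in all 3 knockdown libraries in scaled CPM, although Cd55 was not in TPM. Cr1l, a relative of complement receptor 1, was at 73.5, 57.2 and 47.7 TPM against 43.8 TPM, and Cd46, a cofactor of factor I, at 0.57, 0.39 and 0.4 TPM against 0.16 TPM. Of 5 membrane regulators tested 2 were above the control in all 3 and 2 below it, beside 31.8% and 27.7% of all tested genes. Their median log2 fold change was -0.30. That of the 7 receptors tested was 1.34, with Itgam and Itgb2, the chains of complement receptor CR3, at 7.31, 9.22 and 6.41 TPM and at 22.3, 14.1 and 5.55 TPM across the knockdown libraries versus 2.22 and 4.23 TPM in the control. CR3 is carried by neutrophils and macrophages, whose markers are given above. Cfp, which encodes properdin, the stabiliser of the alternative convertase, was at 16.4, 10.2 and 3.60 TPM against 4.50 TPM.

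**Figure D4:**
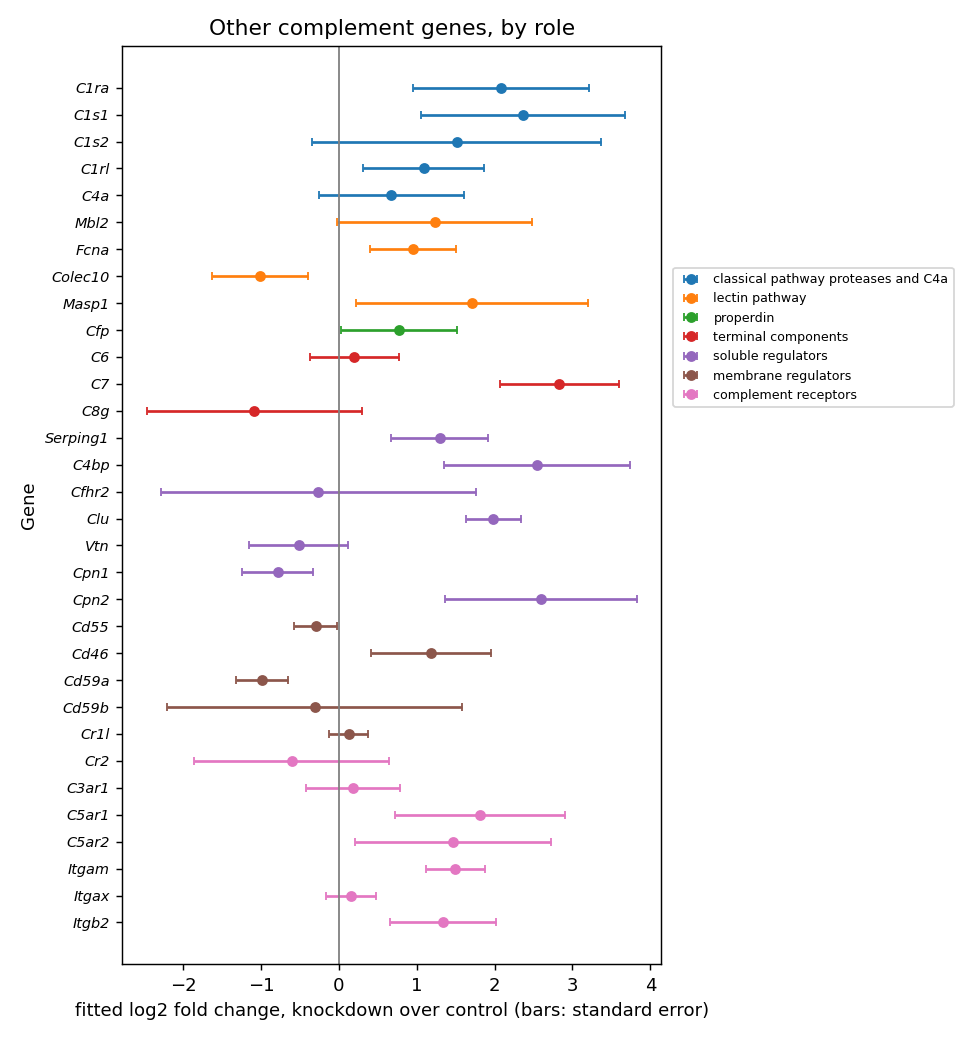
Fitted log2 fold change, knockdown over control, of the other complement genes tested, 1 of which is not shown, grouped by role, with standard errors as bars. Classical proteases and most soluble regulators and receptors lie above 0, the median of the membrane regulators is -0.30, and none of the 33 passed the adjusted threshold.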

How the data were processed

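RNA sequencing libraries of 4 mouse tumours were analysed from 1 deposited table. For each gene the authors deposited expected counts (estimated counts that need not be whole) and TPM. The table also held 4 columns of FPKM, and the authors' fold changes and posterior probabilities of equal expression, none of which were used. Bowtie 0.12.2 and the builds mm8 and mm10 are named, without roles, in the submitters' processing notes. The counter and its annotation were not given in the sources used here. Because the build of the table is unclear, positions are those of GRCm38.

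Libraries were grouped by title and matched to columns by description, and no column was left unmatched. Expected counts, of which 5.3% to 5.89% were not whole, were rounded. Their totals in knockdown replicates 1, 2 and 3 were 24726440, 27508469 and 27910370, with 28950004 in the control. Each pair of libraries differed by more than sampling noise. Genes with at least 10 counts by filterByExpr were kept, and tested two-sided with edgeR 4.0.16 in R 4.3.3 (TMM, quasi-likelihood F-test, Benjamini-Hochberg over all 15246 genes, threshold 0.05), checked on simulated data. The control is a single library, so the spread, on 2 residual degrees of freedom, is that of the knockdown libraries. Exact permutation of the labels could reach no p smaller than 0.25. Ratios of scaled CPM carry exact binomial intervals at 95%. Alternatives were RLE factors, library size alone, no filter, a minimum of 50 counts, DESeq2 1.42.0, limma 3.58.1 on log2 CPM (prior count 2) and on log2(TPM + 1), and each knockdown library left out.

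The genes and lists were chosen with earlier results of these data known. Named besides the 9 genes were, per role, up to 3 other complement genes of highest mean TPM and C4a, the 2 highest of each marker list where a result needed them, and the gene of nearest profile. Slc6a14, Csf1r, Adgre1, Adipoq, Retn, Lpl, Cd46, Col1a1, C4bp and other markers at 0 or used in ratios were named after their values were seen. So were Fabp6, Plin1, Lep, Plin4 and Pparg. The values of 1 gene this rule names are left out here.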

Additional observations from a re-analysis of the deposited data

How the results depend on the processing

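No paired analysis was possible because the knockdown and control libraries share only 1 replicate number in their labels. The count of the 9 genes past the adjusted threshold, 0 by edgeR, was 1 by DESeq2 (C4b) and between 0 and 1 with a knockdown library left out. The count for the 33 other complement genes, also 0, was 1 by DESeq2 (Clu) and between 0 and 7 with a knockdown library left out. Both upper values came without replicate 3, where the spread rests on replicates 1 and 2 alone and 1142 genes were called in all, 774 higher and 368 lower. DESeq2 called 159, 132 higher and 27 lower. The log2 fold change of Cfb lay between -0.047 and 0.369 with a knockdown library left out, so its direction is not settled. Of 90 fold changes of the 9 genes under the alternatives, 87 kept direction and side of the threshold, 2 (C4b) passed and 1 (Cfb without replicate 3) turned. Library size scaling moved the median log2 fold change of all genes to 0.40, against 0.06 with TMM, and that of the 9 genes to 1.58, and put 7 of the 9 above the control in all knockdown libraries against 5 with TMM. Leaving out a library kept the median of the 9 between 0.73 and 1.29. Depth limits Cfi most, with 43 counts in the control, and the single control limits every comparison.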
